A study of Mus musculus with 54 samples.

Results

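The comparison described here is that of 8 libraries of hematopoietic stem cells (HSC) from irradiated mice with 7 libraries from non-irradiated mice, taken at the same 1 h time point and all after the prostaglandin analogue dmPGE2. These 15 libraries, of 54 in the series, were chosen by their column names, which give radiation and dmPGE2, and by the group sizes in the labels. The mice of every group were Fgd5 reporter mice on a C57BL/6 background, in which HSC carry ZsGreen, a green fluorescent protein. Each mouse received a single subcutaneous injection 30 min before radiation time, either of dmPGE2 in ethanol and saline or, in the vehicle groups, of ethanol in saline. The irradiated groups then received 8.53 Gy, the dose that kills 50% of the mice, and HSC were sorted from bone marrow by SLAM and LSK surface markers, with a wide gate, and by ZsGreen. The labels give 3 male and 4 female mice for the non-irradiated dmPGE2 group and 4 of each sex for the irradiated one, but the columns of this time point do not name the sex. The labels give no age. The stated dmPGE2 amount is 35 µg, whereas the stated 3.5 µL of a 0.1 mg/ml solution holds 0.35 µg. A further 8 libraries, of irradiated mice that received vehicle, are set beside the 2 groups for the level of single genes. Non-irradiated vehicle libraries were not analysed here, so no value below is a radiation effect without dmPGE2.

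Ionising radiation breaks DNA, and the kinases that sense the breaks stabilise p53, a transcription factor that switches on genes of cell cycle arrest, apoptosis and metabolic stress. The same damage signals reach NF-kB and the MAP kinases, whose early targets are made without new protein synthesis and include the AP-1 factors, feedback phosphatases, chemokines and mRNA decay factors. Prostaglandin E2 acts through EP receptors, some of which raise cAMP, and its analogue dmPGE2 is broken down more slowly. By itself, cAMP signalling induces many immediate early genes. In HSC, p53 is known for its part in quiescence and in the loss of cells after radiation.

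The libraries held 19963860 to 22976367 counted reads without and 21085900 to 25384366 with radiation, so that depth was alike in both groups. Of 39 genes tested in the HSC identity list, 8 had a positive log2 fold change (median -0.0892), and 1, Cd93, was called lower. The defining genes named here were chosen after their values were seen, and none of them passed the test between the groups. Kit, the stem cell factor receptor of the LSK gate, was at 1583 ± 147 CPM without and 1393 ± 277 CPM with radiation (CPM, reads scaled to library size, mean ± SD). Fgd5, the reporter's locus, was at 89.4 ± 21.3 CPM without and 83.7 ± 13.1 CPM with radiation. Slamf1, which encodes the SLAM marker CD150, was at 58.04 ± 10.3 CPM without and 55.5 ± 7.39 CPM with radiation. Markers of 10 other cell types held no called gene, and their summed levels overlapped between the groups. Only 0.384% of all genes tested rose and 0.0284% fell, so short lists can hold no call at that share alone. Neutrophil markers summed to 162 to 1510 CPM without and 291 to 871 CPM with radiation, and B cell markers to 49.7 to 411 CPM and 45.5 to 375 CPM. The haemoglobin genes Hba-a1, Hba-a2, Hbb-bs and Hbb-bt had 0 reads in all 15 libraries. The erythroid markers still summed to 86.5 to 293 CPM without and 64.4 to 327 CPM with radiation. Whether the counting could assign reads to these haemoglobin genes is not stated, so the 0 does not show that erythroid RNA was absent. In bulk libraries such as these, a gene's lower level in every cell and a lower share of the cells that express it cannot be told apart.

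Radiation after dmPGE2 was followed at 1 h by higher levels of a small set of genes, led by the chemokine gene Cxcl2 and by the stress cytokine gene Gdf15. Of 14061 genes tested with edgeR's quasi-likelihood test, 54 rose (0.384%) and 4 fell (0.0284%) at a Benjamini-Hochberg adjusted p below 0.05, the threshold for a call throughout. An absolute log2 fold change of at least 1 was seen in 39 of the 58 called genes. In 31 of the 54 genes that rose, every irradiated library lay above every non-irradiated one, a pattern that 46 of all genes tested showed (0.327%). In 3 of the 4 genes that fell, every irradiated library lay below every non-irradiated one, which held for 11 of all genes tested (0.0782%). The median log2 fold change of all genes tested was 0.00229, and 7103 of them had a positive value. The number of calls depended on the test: limma voom with sample weights called 125 genes, and 21 passed when a fold change over 1.5 was itself tested. Of the 58 genes, 45 were called when the 2 compared groups were fitted alone and 47 with the 1 h libraries alone.

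**Figure D1:**
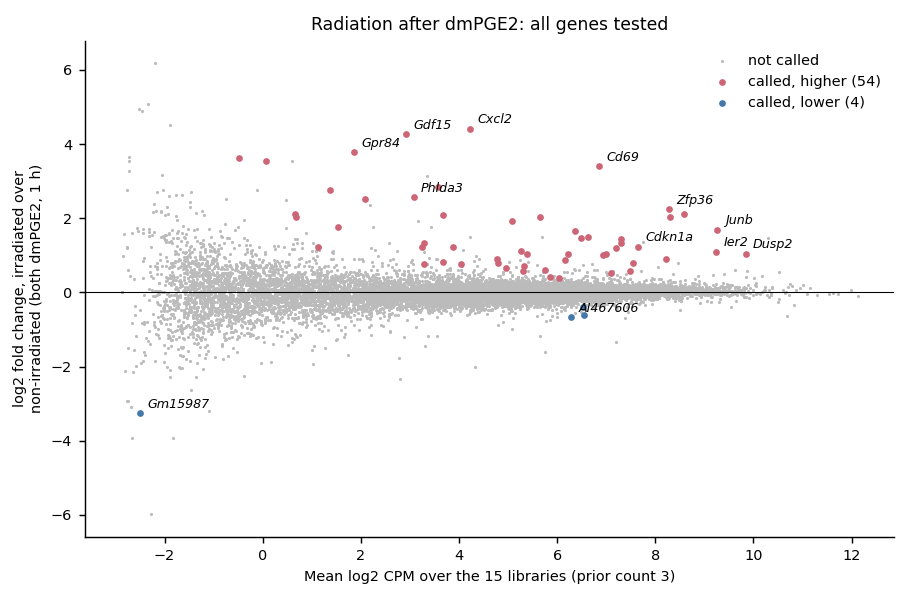
Log2 fold change of irradiated over non-irradiated libraries (both after dmPGE2, 1 h) against the mean log2 CPM of the 15 libraries, 1 point per gene tested. The 54 genes called higher (red) reach from low to high expression, and the 4 called lower (blue) lie close to 0 apart from the barely detected Gm15987.

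To show regulatory sequence of genes that rose in the same comparison, the 250 bases before the start of 6 of them are shown, chosen as examples of 4 of the 5 motifs searched. The sequences are from RefSeq on GRCm38.p6, which listed a promoter for 42 of the 54 genes, and each search covered both strands of 250 bases before to 50 bases after a start. Capitals mark the matches: the kappaB motif in Cxcl2 and Nfkbia, the CArG box in Dusp5 (with 2 adjoining boxes) and Zfp36, the cAMP response element (TGACGTCA) in Btg2, and the p53 decamer motif (2 matches) in Cdkn1a. Matches of different motifs do not overlap in these 6 stretches. The Cxcl2 stretch is chr5:90903649-90903898, plus strand. That of Nfkbia is chr12:55492648-55492897, minus strand, that of Dusp5 chr19:53528895-53529144, plus strand, and that of Zfp36 chr7:28379229-28379478, minus strand. The Btg2 stretch is chr1:134079156-134079405, minus strand, and that of Cdkn1a, for the first of its 2 listed starts, chr17:29090729-29090978, plus strand.
Cxcl2 upstream: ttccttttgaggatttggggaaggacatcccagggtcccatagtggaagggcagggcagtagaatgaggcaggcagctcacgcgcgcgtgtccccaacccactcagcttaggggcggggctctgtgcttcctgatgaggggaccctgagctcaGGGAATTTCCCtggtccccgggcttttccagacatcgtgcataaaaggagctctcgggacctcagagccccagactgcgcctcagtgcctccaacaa
Nfkbia upstream: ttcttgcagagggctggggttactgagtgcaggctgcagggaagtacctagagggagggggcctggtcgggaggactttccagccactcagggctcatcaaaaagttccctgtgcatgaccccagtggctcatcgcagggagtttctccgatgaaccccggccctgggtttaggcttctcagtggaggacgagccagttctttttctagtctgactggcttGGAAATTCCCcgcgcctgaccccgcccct
Dusp5 upstream: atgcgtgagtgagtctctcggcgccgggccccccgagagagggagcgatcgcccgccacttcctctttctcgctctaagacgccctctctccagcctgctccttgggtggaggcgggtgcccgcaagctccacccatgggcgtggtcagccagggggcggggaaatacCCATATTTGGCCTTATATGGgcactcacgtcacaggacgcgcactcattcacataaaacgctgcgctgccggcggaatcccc
Zfp36 upstream: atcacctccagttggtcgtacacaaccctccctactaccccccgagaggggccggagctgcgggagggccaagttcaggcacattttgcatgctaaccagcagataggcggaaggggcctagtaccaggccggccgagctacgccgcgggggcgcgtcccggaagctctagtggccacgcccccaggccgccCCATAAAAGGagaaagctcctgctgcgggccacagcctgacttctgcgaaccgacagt
Btg2 upstream: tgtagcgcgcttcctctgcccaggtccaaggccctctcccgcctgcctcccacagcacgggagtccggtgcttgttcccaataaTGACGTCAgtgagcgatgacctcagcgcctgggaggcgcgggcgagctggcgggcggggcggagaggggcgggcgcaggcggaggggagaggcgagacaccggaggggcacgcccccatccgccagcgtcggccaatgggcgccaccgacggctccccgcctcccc
Cdkn1a upstream: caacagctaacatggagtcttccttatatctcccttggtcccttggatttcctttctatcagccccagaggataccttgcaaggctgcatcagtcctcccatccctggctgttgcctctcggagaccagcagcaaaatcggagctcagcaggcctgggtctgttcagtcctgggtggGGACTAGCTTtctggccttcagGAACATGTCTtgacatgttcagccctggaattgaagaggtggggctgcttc

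The kappaB motif, which NF-kB dimers bind, was in the promoters of 10 of the 42 genes (23.8%), against 6.35% of the 10662 tested genes with a listed promoter and 4.51% of all 32851 promoters. The 10 genes were Cxcl2, Nfkbia, Tnfaip3, Ier3, Ccrl2, Bbc3, Vegfa, Irf1, Tnfaip8l1 and Maff. A gene was counted if any of its listed promoters held the motif, so the share of single promoters has another unit. The cAMP response element was found for 3 genes (7.14%, against 3.46% of tested genes and 1.79% of all promoters), Dusp8, Btg2 and Maff. The CArG box, which serum response factor binds, was found for 2 (4.76%, against 1.6% and 1.63%), Zfp36 and Dusp5. The AP-1 site (TGANTCA) was found for 4 (9.52%, against 6.54% and 7.81%), Lif, Tnfaip3, Csrnp1 and Zfp36l1. The p53 decamer motif was found for 3 (7.14%, against 8.22% and 8.36%), Ddit4l, Ier5 and Cdkn1a. A match gives the letters in that window and was not tested for use.

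The p53 targets that rose included genes known for cell cycle arrest, apoptosis and secreted or metabolic stress responses. Of 62 p53 targets tested, 13 rose, none fell and 49 were not called, with a median log2 fold change of 0.127. Gdf15, a secreted stress cytokine of the TGF-beta family (chr8:70629394-70631635), ranged from 0.9399 to 2.86 CPM (median 1.47) in the non-irradiated libraries and from 14.3 to 98.6 CPM (median 27.3) in the irradiated ones. The groups did not overlap, and irradiated library 4 was far above the other 7 (log2 fold change 4.27, SE 0.46, adjusted p = 8.95e-08). Phlda3, which encodes an inhibitor of AKT signalling, ranged from 2.54 to 4.49 CPM (median 3.43) in the non-irradiated libraries and from 10.8 to 47.9 CPM (median 16.8) in the irradiated ones. Every irradiated library was higher than every non-irradiated one, again with library 4 at the top (log2 fold change 2.57, SE 0.23, adjusted p = 5.22e-10). Pmaip1 (Noxa), a BH3-only gene that promotes apoptosis, ranged from 0.647 to 3.07 CPM (median 1.96) in the non-irradiated libraries and from 4.17 to 38.2 CPM (median 7.68) in the irradiated ones. Here too the groups did not overlap (log2 fold change 2.53, SE 0.38, adjusted p = 4.21e-05). Bbc3 (Puma), another BH3-only gene, ranged from 5.51 to 13.8 CPM (median 9.704) in the non-irradiated libraries and from 11.4 to 41.8 CPM (median 21.2) in the irradiated ones. In Bbc3, 6 of 8 irradiated libraries lay above all non-irradiated ones (log2 fold change 1.22, SE 0.2, adjusted p = 0.000262).

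Cdkn1a, Btg2, Ier5 and Sertad1 of the p53 list rose as well. Cdkn1a (p21), the cyclin-dependent kinase inhibitor that carries p53 arrest and whose 2 motif matches are shown above, ranged from 99.7 to 187 CPM (median 112) in the non-irradiated libraries and from 225 to 406 CPM (median 299) in the irradiated ones. The groups did not overlap (log2 fold change 1.23, SE 0.13, adjusted p = 3.63e-08). Btg2, an antiproliferative gene that acts with mRNA deadenylases, ranged from 101.3 to 242 CPM (median 184) in the non-irradiated libraries and from 428 to 993 CPM (median 820.1) in the irradiated ones. Its groups did not overlap either (log2 fold change 2.11, SE 0.18, adjusted p = 7.43e-11). Ier5, which p53 and growth signals both induce, ranged from 12.5 to 25.1 CPM (median 15.2) in the non-irradiated libraries and from 45.8 to 101.5 CPM (median 55.1) in the irradiated ones. Again no irradiated library fell within the non-irradiated range (log2 fold change 1.93, SE 0.16, adjusted p = 7.43e-11). Sertad1, a regulator of CDK4, went from 52.5 ± 4.73 to 95.3 ± 12.1 CPM (log2 fold change 0.86, SE 0.1, adjusted p = 3.05e-07), with no overlap.

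The remaining called p53 targets act in signalling, transport and growth control. Fam212b, an inhibitor of the kinase PAK4, ranged from 0.0431 to 0.722 CPM (median 0.21) in the non-irradiated libraries and from 0.917 to 12.2 CPM (median 2.18) in the irradiated ones, with no overlap (log2 fold change 3.54, SE 0.49, adjusted p = 1e-05). Eda2r, a member of the TNF receptor family, went from 0.763 ± 0.4999 to 3.33 ± 1.94 CPM (log2 fold change 2.12, SE 0.37, adjusted p = 0.00086), and 5 of 8 irradiated libraries lay above the non-irradiated range. Its call was lost with the 2 groups alone (adjusted p = 0.0516) and with voom weights (0.259). Ddit4l, an inhibitor of mTOR signalling, went from 0.769 ± 0.417 to 3.18 ± 2.103 CPM (log2 fold change 2.03, SE 0.37, adjusted p = 0.00143), with 6 of 8 above, and lost its call with voom weights (adjusted p = 0.298). Slc19a2, a thiamine transporter, went from 20.6 ± 3.41 to 38.7 ± 24.4 CPM (log2 fold change 0.91, SE 0.19, adjusted p = 0.00802). The Slc19a2 call was lost with only 1 h libraries in the fit (adjusted p = 0.0901) and with the 2 groups alone (0.262), and without irradiated library 4 its log2 fold change was 0.56 (adjusted p = 0.00842). Sesn2, a stress-induced inhibitor of mTOR signalling, went from 24.8 ± 3.47 to 39.3 ± 13.5 CPM (log2 fold change 0.67, SE 0.16, adjusted p = 0.0322). Sesn2 lost its call without irradiated library 2, 4 or 8 or any of non-irradiated libraries 1 to 6, with adjusted p up to 0.166, and without irradiated library 4 its log2 fold change was 0.52 (adjusted p = 0.166). The Sesn2 call was also lost with only 1 h libraries in the fit (adjusted p = 0.0669), the 2 groups alone (0.194), voom weights (0.116) and with irradiated library 4 and non-irradiated library 2 both left out (0.302).

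The other p53 targets did not pass the test, and 40 of all 62 had a positive value. Mdm2, which encodes the ubiquitin ligase that degrades p53, was at 83.3 ± 10.2 CPM without and 113 ± 15.2 CPM with radiation (log2 difference 0.44, adjusted p = 0.144). Plk2, a polo-like kinase gene, was at 276 ± 86.4 CPM without and 479.9 ± 163 CPM with radiation (log2 difference 0.8, adjusted p = 0.0698). Ddias, a gene of damage-induced apoptosis suppression, was at 13.4 ± 3.04 CPM without and 21.8 ± 8.88 CPM with radiation (log2 difference 0.71, adjusted p = 0.0746). Ccng1, a cyclin gene and p53 target, was at 138 ± 18.4 CPM without and 183 ± 51.7 CPM with radiation (log2 difference 0.41, adjusted p = 0.427). Bax, a pore-forming effector of apoptosis, was at 58.9 ± 4.29 CPM without and 68.7 ± 8.23 CPM with radiation (log2 difference 0.22, adjusted p = 0.534), and the death receptor gene Fas, with a negative value, was at 4.997 ± 2.34 CPM without and 3.76 ± 1.18 CPM with radiation (log2 difference -0.41, adjusted p = 0.999). Of 17 genes of p53 and its regulators none was called, and Trp53 itself was at 277 ± 13.9 CPM without and 281 ± 35.5 CPM with radiation. None of 15 anti-apoptotic genes was called, 2 of 21 pro-apoptotic genes rose (Pmaip1 and Bbc3), and of 12 CDK inhibitors and brakes 1 rose (Cdkn1a).

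Levels of the p53 targets in the 8 irradiated libraries of vehicle mice are given beside these. Irradiated dmPGE2 libraries entered both comparisons, and between them and irradiated vehicle libraries 1929 genes were called in either direction (13.7%). Gdf15 stood at 830.4 to 1523 CPM with radiation and vehicle, above every irradiated dmPGE2 library (log2 difference -5.17, adjusted p = 7.71e-12). Phlda3 stood at 276 to 494 CPM (log2 difference -4.3, adjusted p = 4.03e-18), and Bbc3 at 235 to 393 CPM (log2 difference -3.67, adjusted p = 1.99e-17). In all 3 genes every irradiated dmPGE2 library lay below the vehicle range. Pmaip1 stood at 68.9 to 90.2 CPM (log2 difference -2.85, adjusted p = 4.82e-08). Cdkn1a stood at 549.9 to 831 CPM (log2 difference -1.09, adjusted p = 2e-08), and Sesn2 at 381 to 609 CPM (log2 difference -3.79, adjusted p = 9.24e-21). Btg2 had another pattern, with 555 to 919.5 CPM in irradiated vehicle libraries (log2 difference 0.2, adjusted p = 0.513), so that its irradiated ranges overlapped. Mdm2, not called with radiation after dmPGE2, averaged 384 CPM in irradiated vehicle libraries.

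**Figure D2:**
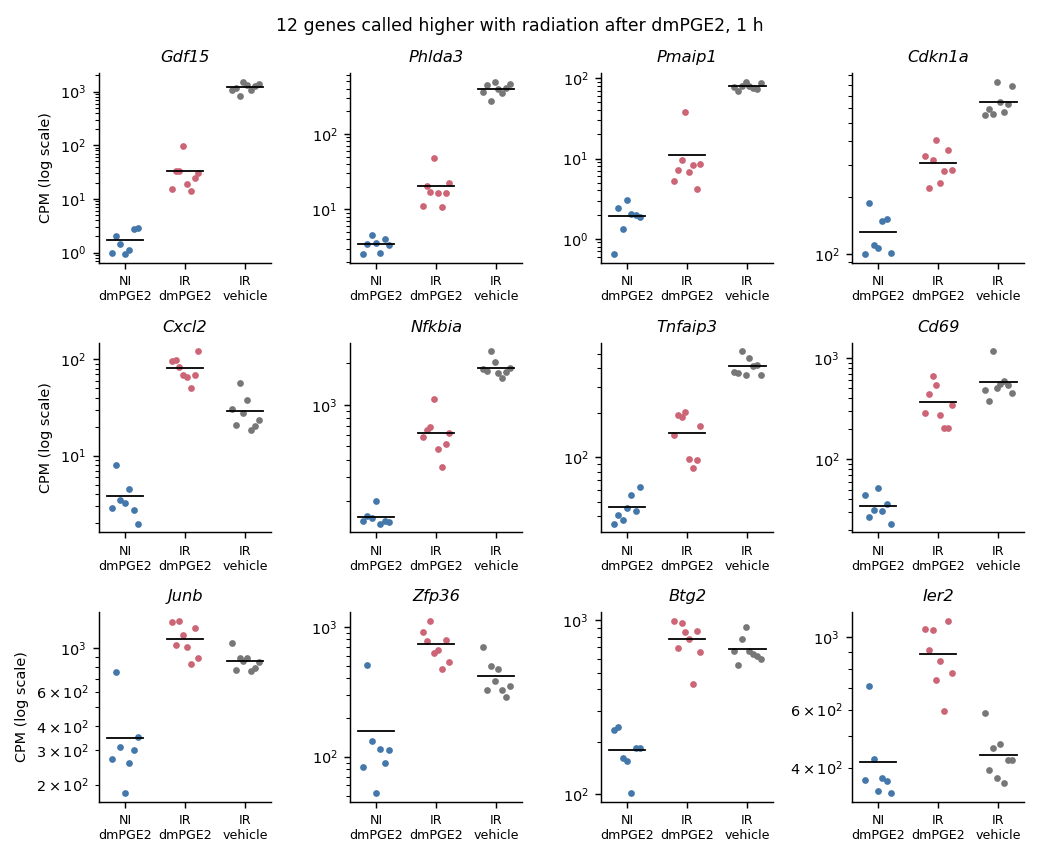
CPM per library (points, log axis) and group mean (line) of 12 genes in non-irradiated (NI) dmPGE2, irradiated (IR) dmPGE2 and irradiated vehicle libraries. For Gdf15, Phlda3, Nfkbia and Tnfaip3 the irradiated dmPGE2 libraries lie between the other groups, whereas for Cxcl2 and Ier2 most of them lie above both.

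Irradiated library 4 was the highest in most of the p53 targets that rose, while the order of the other libraries varied from gene to gene. Library 4 led in 12 of the 13 p53 targets that rose and in 28 of all 54 genes, and library 6 was the lowest in 6 and 25. The mean log2 CPM of the 62 p53 targets ran from 4.016 to 4.265 without radiation, from 4.422 (library 6) to 4.937 (library 4) with radiation, and from 5.524 to 5.821 with radiation and vehicle. These 3 ranges did not overlap, but the mean includes the 13 targets called in this same comparison. The list of NF-kB subunits and inhibitors also had separate ranges, 5.386 to 5.716, 5.751 to 5.997 and 6.549 to 6.918 in the same order of groups. That mean likewise includes Nfkbia and Tnfaip3, called in this same comparison, while the list's median log2 fold change was 0.106. Library 4 had 23318267 reads, second of the 8, and its summed markers were the highest of the 8 for monocytes and macrophages (1120 CPM) and the lowest for dendritic cells (292 CPM) and for mast cells and basophils (469 CPM). Its mean log2 CPM of the HSC identity list, 6.35, was also the lowest of the 8 (median 6.7615). That value lay below every non-irradiated library (lowest 6.669). The part of these differences in the p53 values was not tested. Without library 4, 12 p53 targets were called, Gdf15 had a log2 fold change of 3.8 (adjusted p = 4.69e-08), Pmaip1 1.91 (adjusted p = 3.55e-05) and Fam212b 2.89 (adjusted p = 5.46e-06).

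**Figure D3:**
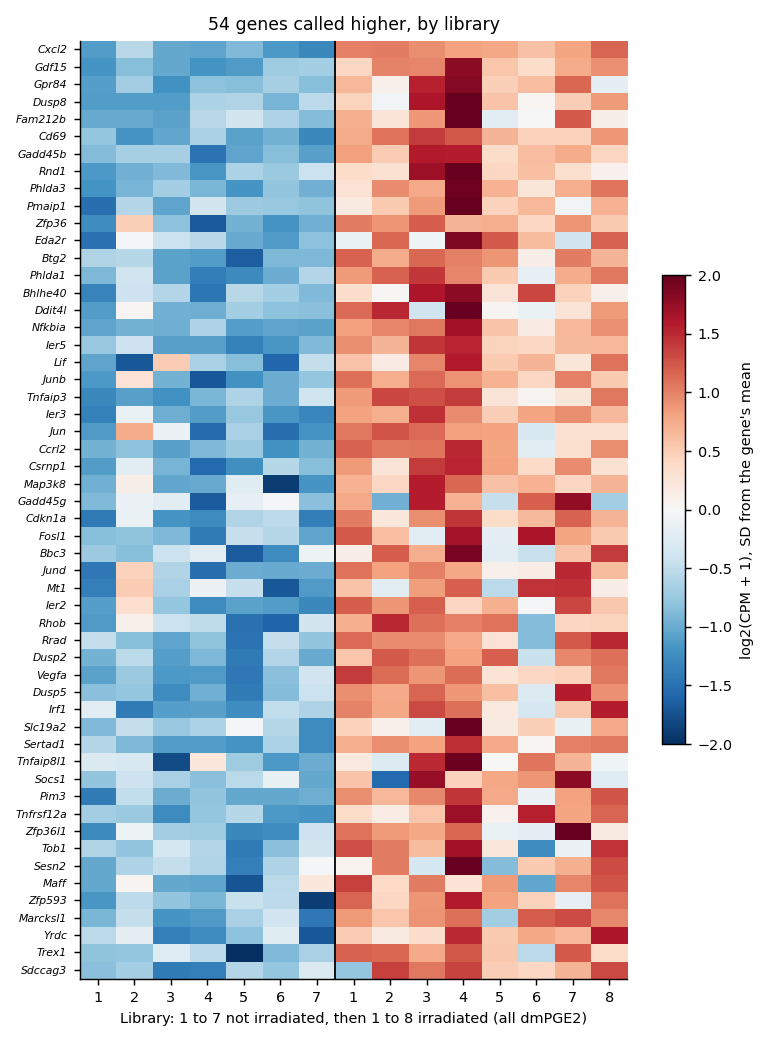
The 54 genes called higher (vertical, by falling log2 fold change) in each of the 15 libraries, as log2(CPM + 1) in SD from the gene's mean over these libraries. Irradiated library 4 is the highest irradiated library in 28 genes and library 6 the lowest in 25, and non-irradiated library 2 is the highest of its group in 22.

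Inflammatory genes held the steepest rise and also the inhibitors that limit NF-kB. Cxcl2, a chemokine that draws neutrophils and whose kappaB match is shown above (chr5:90903899-90905938), ranged from 1.97 to 7.97 CPM (median 3.22) in the non-irradiated libraries and from 49.8 to 121 CPM (median 76.1) in the irradiated ones. The lowest irradiated library was several times above the highest non-irradiated one (log2 fold change 4.41, SE 0.63, adjusted p = 6.73e-05). Lif, a cytokine of the IL-6 family, ranged from 0.396 to 4.53 CPM (median 1.35) in the non-irradiated libraries and from 3.44 to 9.79 CPM (median 4.92) in the irradiated ones, with 6 of 8 irradiated libraries above all others (log2 fold change 1.75, SE 0.34, adjusted p = 0.00346). The Lif call was lost with the 2 groups alone (adjusted p = 0.077). Cxcl2 and Lif were the called members among 25 chemokine and cytokine genes tested, whose median log2 fold change was 0.115. Cxcl3, a close relative of Cxcl2, was at 1.9 ± 0.642 CPM without and 9.73 ± 2.63 CPM with radiation and missed the threshold (log2 difference 2.35, adjusted p = 0.0746). How reads that fit both of these relatives were counted is not stated, so both values carry that uncertainty. Il1b, which encodes interleukin 1 beta, was at 2.63 ± 0.512 CPM without and 8.92 ± 5.58 CPM with radiation (log2 difference 1.76, adjusted p = 0.999).

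Of 23 NF-kB subunits and inhibitors 2 rose, both of them inhibitors, and none fell (median 0.106). Nfkbia, which encodes the inhibitor that holds NF-kB in the cytoplasm, ranged from 138 to 199.6 CPM (median 144) in the non-irradiated libraries and from 356 to 1097 CPM (median 603) in the irradiated ones. The groups did not overlap (log2 fold change 2.03, SE 0.19, adjusted p = 1.75e-09). Tnfaip3 (A20), a ubiquitin-editing inhibitor of the same pathway, ranged from 35.8 to 63.5 CPM (median 43.3) in the non-irradiated libraries and from 84.8 to 202 CPM (median 152) in the irradiated ones, also without overlap (log2 fold change 1.66, SE 0.21, adjusted p = 1.57e-06). Nfkbiz, an atypical IkB gene, was at 11.3 ± 4.02 CPM without and 32.04 ± 13.4 CPM with radiation and just missed the threshold (log2 difference 1.5, adjusted p = 0.0501). Map3k8, a kinase gene upstream of ERK, went from 6.11 ± 2.49 to 15.4 ± 3.72 CPM (log2 fold change 1.33, SE 0.29, adjusted p = 0.0144). With radiation and vehicle, Nfkbia stood at 1555 to 2437 CPM (log2 difference -1.57, adjusted p = 1.86e-08) and Tnfaip3 at 358 to 519 CPM (log2 difference -1.49, adjusted p = 3.92e-07). Cxcl2 stood at 18.2 to 56.8 CPM there, and the difference was not called (log2 difference 1.47, adjusted p = 0.0582).

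Among 21 inflammatory surface and enzyme genes 3 rose. Cd69, an early activation marker that holds lymphocytes in tissue, ranged from 23.1 to 51.6 CPM (median 31.4) in the non-irradiated libraries and from 205 to 658 CPM (median 316) in the irradiated ones. The groups were far apart (log2 fold change 3.41, SE 0.28, adjusted p = 7.43e-11), and irradiated vehicle libraries were at 372 to 1162 CPM (log2 difference -0.66, adjusted p = 0.065). Ccrl2, a chemerin-binding receptor, ranged from 81.5 to 105 CPM (median 94.1) in the non-irradiated libraries and from 139 to 354 CPM (median 269) in the irradiated ones, with no overlap (log2 fold change 1.43, SE 0.21, adjusted p = 2.17e-05). Irf1, an interferon regulatory factor, went from 217 ± 36.5 to 408 ± 89.9 CPM (log2 fold change 0.91, SE 0.17, adjusted p = 0.00212). Gpr84, a receptor for medium-chain fatty acids, ranged from 0.388 to 1.52 CPM (median 1.05) in the non-irradiated libraries and from 3.11 to 35.5 CPM (median 9.18) in the irradiated ones, with no overlap (log2 fold change 3.78, SE 0.79, adjusted p = 0.00802). Ptgs2, which encodes the inducible cyclooxygenase of prostaglandin synthesis, was at 4.92 ± 3.74 CPM without and 18.9 ± 8.02 CPM with radiation and was not called (log2 difference 1.94, adjusted p = 0.677).

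Further signalling genes rose by smaller factors. Socs1, an inhibitor of cytokine receptor signalling, went from 21.4 ± 2.62 to 37.1 ± 14.3 CPM (log2 fold change 0.8, SE 0.18, adjusted p = 0.0145), the 1 called member among 8 SOCS genes. Socs3 had a larger difference that was not called, at 151 ± 84.2 CPM without and 390 ± 198 CPM with radiation (log2 difference 1.37, adjusted p = 0.706). In Socs1, 6 of 8 irradiated libraries lay above every non-irradiated one, and 1 (14.4 CPM) lay below them all (lowest 18.02 CPM). Its call was lost without irradiated library 3 (adjusted p = 0.0655), irradiated library 7 (0.0648) or non-irradiated library 7 (0.0506), and with only 1 h libraries in the fit (adjusted p = 0.0671), the 2 groups alone (0.188) and with voom weights (0.118). Tnfrsf12a, the receptor of the cytokine TWEAK, went from 7.28 ± 0.626 to 12.4 ± 2.35 CPM (log2 fold change 0.76, SE 0.17, adjusted p = 0.0145), with no overlap, and without non-irradiated library 3 its adjusted p was 0.0503. Tnfaip8l1, a relative of an apoptosis regulator, went from 9.76 ± 2.59 to 17.1 ± 5.799 CPM (log2 fold change 0.81, SE 0.19, adjusted p = 0.0322). It kept its call in 8 of 15 fits that left out 1 library, those without irradiated library 1, 2, 5, 7 or 8 or non-irradiated library 1, 2 or 4, with adjusted p up to 0.144 in the others, and lost it with only 1 h libraries in the fit (adjusted p = 0.0527), the 2 groups alone (0.151) and with irradiated library 4 and non-irradiated library 2 both left out (0.183).

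Some AP-1 and other immediate early genes rose, and non-irradiated library 2 was often the highest of its group in them. Of 14 AP-1 genes 5 rose and none fell (median 0.353), and of 29 EGR, IER and other immediate early genes 6 rose and none fell (median 0.547), with positive values in 27. Junb, an AP-1 subunit, ranged from 181 to 755 CPM (median 302) in the non-irradiated libraries and from 828 to 1382 CPM (median 1100.1) in the irradiated ones. The groups stood apart by a small gap, since non-irradiated library 2 held the 755 CPM (log2 fold change 1.69, SE 0.23, adjusted p = 5.89e-06). Jund, another subunit, went from 97.96 ± 41.7 to 225 ± 55.8 CPM (log2 fold change 1.2, SE 0.17, adjusted p = 2.27e-05). Jun ranged from 25.4 to 163 CPM (median 35.3) in the non-irradiated libraries and from 69.9 to 247 CPM (median 172) in the irradiated ones, and the 163 CPM of non-irradiated library 2 lay within the irradiated range (log2 fold change 1.47, SE 0.32, adjusted p = 0.0159). Fosl1, which encodes FRA-1, went from 1.34 ± 0.242 to 3.14 ± 1.01 CPM (log2 fold change 1.23, SE 0.25, adjusted p = 0.00794), and Maff, a small MAF factor, from 43.9 ± 9.23 to 66.6 ± 13.6 CPM (log2 fold change 0.6, SE 0.14, adjusted p = 0.0383). Fos, the best known immediate early gene, was at 381 ± 314 CPM without and 480.4 ± 144 CPM with radiation and was not called (log2 difference 0.33, adjusted p = 0.999).

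The calls of Jun and Maff depended on single libraries and on which libraries were fitted. With the 2 compared groups fitted alone the adjusted p was 0.313 for Jun and 0.11 for Maff, and with the 1 h libraries alone 0.0704 and 0.0901. Without non-irradiated library 2 the log2 fold change was 1.97 (adjusted p = 2.83e-05) for Jun and 2.0 (adjusted p = 4.89e-09) for Junb. The call of Jun was lost without non-irradiated library 1 (adjusted p = 0.057), 4 (0.0543), 6 (0.0527) or 7 (0.0586). Maff kept its call in 5 of 15 such fits, those without irradiated library 2, 4 or 6 or non-irradiated library 2 or 7, with adjusted p up to 0.145 in the others, and just lost it with no filter on low counts or with upper quartile scaling (adjusted p = 0.0502 and 0.0545). Junb, Jund and Fosl1 were called in every fit that left out 1 library. With radiation and vehicle, Jun stood at 366 to 627 CPM (log2 difference -1.64, adjusted p = 0.000196) and Jund at 432 to 609 CPM (log2 difference -1.18, adjusted p = 1.07e-06), above every irradiated dmPGE2 library. Junb stood at 765 to 1069.9 CPM, a difference that was not called (log2 difference 0.38, adjusted p = 0.272).

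The 6 immediate early genes that rose were Ier2, Ier3, Ier5, Bhlhe40, Phlda1 and Csrnp1. Ier2, a nuclear immediate early gene, ranged from 334 to 707 CPM (median 366) in the non-irradiated libraries and from 593 to 1118 CPM (median 876) in the irradiated ones, and again the 707 CPM came from non-irradiated library 2 (log2 fold change 1.09, SE 0.15, adjusted p = 4.14e-06). Ier3, a stress-inducible survival gene, ranged from 44.6 to 91.4 CPM (median 51.2) in the non-irradiated libraries and from 131 to 229.8 CPM (median 157) in the irradiated ones, with no overlap (log2 fold change 1.51, SE 0.3, adjusted p = 0.00575). Bhlhe40, a transcriptional repressor of the clock and of stress responses, ranged from 15.04 to 35.8 CPM (median 28.8) in the non-irradiated libraries and from 51.1 to 215 CPM (median 70.1) in the irradiated ones. Its groups did not overlap, and libraries 3, 4 and 6 were high (log2 fold change 2.04, SE 0.32, adjusted p = 0.000153). Phlda1, a pleckstrin-domain gene of growth signalling, ranged from 3.96 to 9.25 CPM (median 5.65) in the non-irradiated libraries and from 11.3 to 38.2 CPM (median 26.3) in the irradiated ones, with no overlap (log2 fold change 2.08, SE 0.35, adjusted p = 0.000274). Csrnp1, a nuclear protein gene, went from 98.9 ± 23.4 to 249 ± 64.2 CPM (log2 fold change 1.33, SE 0.24, adjusted p = 0.00145), also with no overlap. Egr1, a zinc finger factor, was at 615 ± 325 CPM without and 871 ± 374 CPM with radiation (log2 difference 0.5, adjusted p = 0.999), and Nr4a1, an orphan nuclear receptor, at 511 ± 158 CPM without and 700.5 ± 213 CPM with radiation (log2 difference 0.46, adjusted p = 0.999). In irradiated vehicle libraries Ier2 stood at 359 to 587 CPM, lower than with dmPGE2 (log2 difference 1.02, adjusted p = 5.25e-07).

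The GADD45 and BTG/TOB families, small antiproliferative stress genes, each held 2 called members. Gadd45b ranged from 2.18 to 5.95 CPM (median 4.74) in the non-irradiated libraries and from 17.9 to 60.01 CPM (median 24.6) in the irradiated ones. The groups did not overlap, and libraries 3 and 4 were far above the rest (log2 fold change 2.84, SE 0.3, adjusted p = 1.87e-08). Gadd45g went from 6.87 ± 2.52 to 16.2 ± 10.1 CPM (log2 fold change 1.23, SE 0.3, adjusted p = 0.0449), and Gadd45a, the member that p53 is known to induce, was at 8.18 ± 0.695 CPM without and 6.94 ± 1.51 CPM with radiation (log2 difference -0.24, adjusted p = 0.999). Gadd45g kept its call in 5 of 15 fits that left out 1 library, those without irradiated library 2, 5 or 8 or non-irradiated library 2 or 6, with adjusted p up to 0.177 in the others. The Gadd45g call was also lost with only 1 h libraries in the fit (adjusted p = 0.154), the 2 groups alone (0.4), voom weights (0.412), no filter on low counts (0.0502) and with irradiated library 4 and non-irradiated library 2 both left out (0.0727). Tob1, a relative of Btg2, went from 31.5 ± 3.79 to 52.1 ± 15.5 CPM (log2 fold change 0.72, SE 0.16, adjusted p = 0.0144), and lost its call without irradiated library 4 (adjusted p = 0.0571) or non-irradiated library 5 (0.0535) and with the 2 groups alone (adjusted p = 0.0803) and with irradiated library 4 and non-irradiated library 2 both left out (0.13). The median log2 fold change was 0.689 over 4 GADD45 genes tested and 0.471 over 5 BTG and TOB genes.

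Genes that destroy mRNA or dephosphorylate MAP kinases, which act as feedback on early transcription, were also among the genes that rose. Zfp36 (tristetraprolin), which binds AU-rich elements and promotes decay of cytokine mRNA, ranged from 52.4 to 509 CPM (median 113) in the non-irradiated libraries and from 476 to 1110.4 CPM (median 720.2) in the irradiated ones. Only non-irradiated library 2, at 509 CPM, reached the irradiated range (log2 fold change 2.24, SE 0.38, adjusted p = 0.000605), and without it the log2 fold change was 2.92 (adjusted p = 7.07e-08). Its relative Zfp36l1 went from 12.6 ± 2.03 to 21.3 ± 5.395 CPM (log2 fold change 0.76, SE 0.15, adjusted p = 0.00575). Of 11 genes of mRNA decay these 2 rose. Of 18 MAP kinase phosphatases and Sprouty genes 3 rose and 1 fell (median 0.0686). Dusp2, a nuclear phosphatase of ERK, ranged from 514 to 738 CPM (median 625) in the non-irradiated libraries and from 764 to 1506 CPM (median 1394) in the irradiated ones, with no overlap (log2 fold change 1.04, SE 0.15, adjusted p = 1.44e-05). Dusp5, which carries the 2 CArG boxes, ranged from 70.4 to 103 CPM (median 87.1) in the non-irradiated libraries and from 109.8 to 228 CPM (median 174) in the irradiated ones, also with no overlap (log2 fold change 1.01, SE 0.19, adjusted p = 0.00221). Dusp8, a phosphatase of JNK and p38, was near the limit of detection without radiation, from 0 to 0.378 CPM (median 0.0982) in the non-irradiated libraries and from 0.764 to 4.61 CPM (median 1.43) in the irradiated ones (log2 fold change 3.61, SE 0.77, adjusted p = 0.014).

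Dusp6, a cytoplasmic phosphatase of ERK, went the other way. It ranged from 98.8 to 161 CPM (median 109) in the non-irradiated libraries and from 52.8 to 95.95 CPM (median 79.4) in the irradiated ones, and every irradiated library was below every non-irradiated one (log2 fold change -0.61, SE 0.15, adjusted p = 0.0368). It kept its call in 7 of 15 fits that left out 1 library, those without irradiated library 2, 3 or 5 or non-irradiated library 1, 2, 5 or 6, with adjusted p up to 0.202 in the others, and lost it with only 1 h libraries in the fit (adjusted p = 0.0901) and with irradiated library 4 and non-irradiated library 2 both left out (0.0944). Dusp1, a nuclear phosphatase of stress kinases, was at 776 ± 326 CPM without and 2135 ± 688 CPM with radiation and was not called (log2 difference 1.46, adjusted p = 0.137). With radiation and vehicle, Dusp5 stood at 29.1 to 84.5 CPM (log2 difference 1.99, adjusted p = 1.28e-10), Dusp2 at 393 to 814 CPM (log2 difference 1.26, adjusted p = 9.29e-09) and Dusp6 at 24.04 to 56.5 CPM (log2 difference 1.09, adjusted p = 2.53e-07). Each of these 3 was higher in the irradiated dmPGE2 group than in the irradiated vehicle group.

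**Figure D4:**
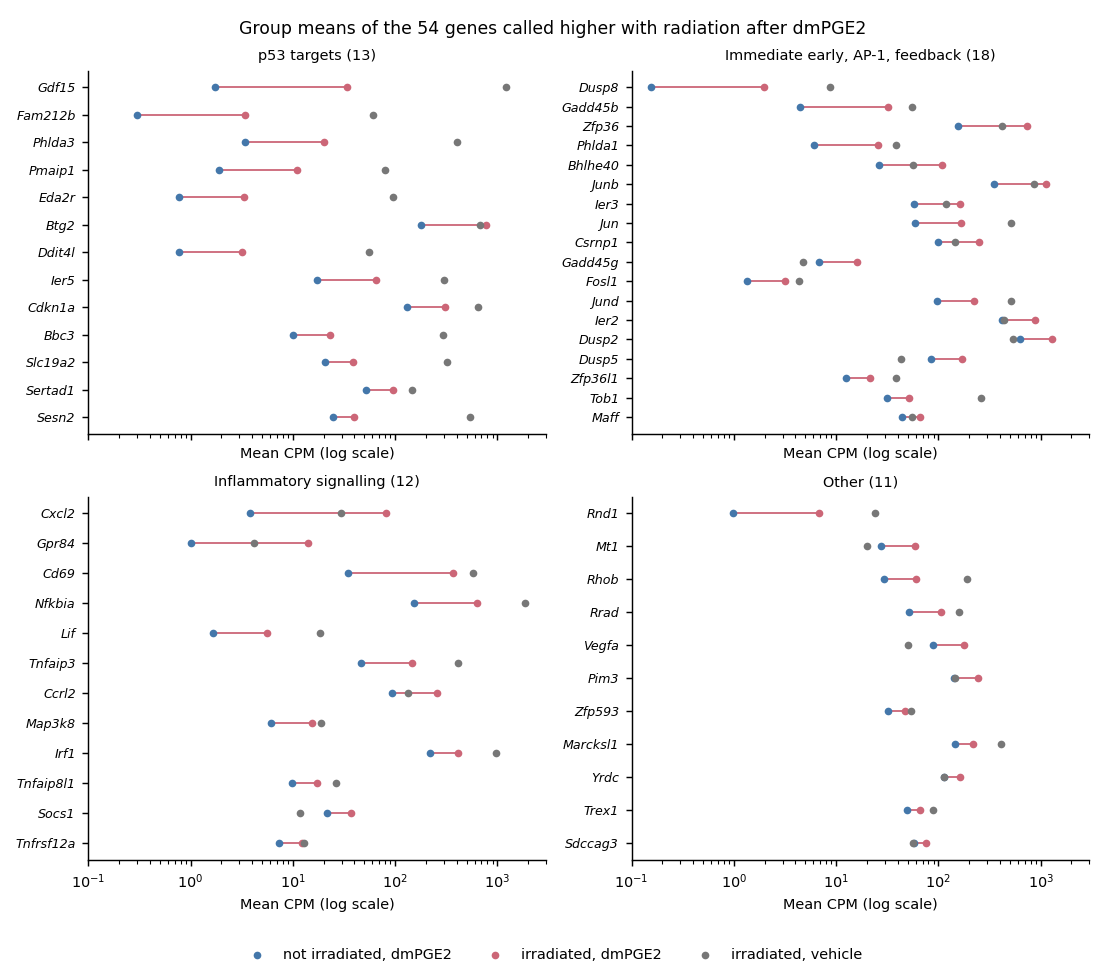
Mean CPM (log axis) of the 54 genes called higher, by role, in non-irradiated dmPGE2 (blue), irradiated dmPGE2 (red) and irradiated vehicle (grey) libraries, with a line from the non-irradiated to the irradiated dmPGE2 mean. The grey point lies to the right of the red one for the p53 targets other than Btg2, and on either side in the other panels.

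The other genes that rose have varied roles. Rnd1 ranged from 0.544 to 1.68 CPM (median 0.906) in the non-irradiated libraries and from 2.98 to 18.3 CPM (median 4.01) in the irradiated ones, with no overlap (log2 fold change 2.77, SE 0.55, adjusted p = 0.00491). Rhob went from 29.6 ± 9.11 to 61.04 ± 18.2 CPM (log2 fold change 1.05, SE 0.2, adjusted p = 0.00221), and Rrad, a small GTPase that p53 can induce, from 51.8 ± 7.48 to 107 ± 28.4 CPM (log2 fold change 1.04, SE 0.23, adjusted p = 0.014). Vegfa, the vascular growth factor gene, went from 87.6 ± 12.2 to 179 ± 28.2 CPM (log2 fold change 1.03, SE 0.22, adjusted p = 0.0139), with no overlap, and irradiated vehicle libraries were lower, at 33.96 to 77.3 CPM (log2 difference 1.83, adjusted p = 3.74e-08). Pim3, a survival kinase gene, went from 141 ± 11.8 to 243 ± 31.97 CPM (log2 fold change 0.78, SE 0.1, adjusted p = 7.9e-07). Mt1, a metal-binding metallothionein, went from 27.6 ± 13.1 to 59.5 ± 24.3 CPM (log2 fold change 1.11, SE 0.26, adjusted p = 0.0364), and kept its call in 6 of 15 fits that left out 1 library, those without irradiated library 1, 2, 5 or 8 or non-irradiated library 2 or 4, with adjusted p up to 0.128 in the others. The Mt1 call was also lost with only 1 h libraries in the fit (adjusted p = 0.0704), the 2 groups alone (0.246) and with voom weights (0.0621).

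The smallest called rises were in 5 genes of housekeeping or less known roles. Marcksl1, an actin-binding protein gene, had a log2 fold change of 0.57 (adjusted p = 0.00134), and Zfp593, a zinc finger gene, 0.57 (adjusted p = 0.00575). Yrdc, a gene of tRNA modification, had a log2 fold change of 0.51 (adjusted p = 0.000495). In Yrdc and Zfp593 the groups did not overlap. Trex1, a DNA exonuclease that clears cytosolic DNA, had a log2 fold change of 0.42 (adjusted p = 0.017), lost without non-irradiated library 5 (adjusted p = 0.0703). Sdccag3, a gene of endosomal sorting, had a log2 fold change of 0.39 (adjusted p = 0.0159), lost without non-irradiated library 3 (adjusted p = 0.0611) or 4 (0.053).

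Besides Dusp6, 3 genes fell. Cd93, a surface receptor of early hematopoietic and endothelial cells and the 1 called gene of 39 in the HSC identity list, ranged from 98.7 to 116 CPM (median 108) in the non-irradiated libraries and from 58.04 to 95.99 CPM (median 80.5) in the irradiated ones, with no overlap (log2 fold change -0.4, SE 0.09, adjusted p = 0.0145). Its call was lost without irradiated library 4 (adjusted p = 0.063) or non-irradiated library 4 (0.0508) or 7 (0.059), and with only 1 h libraries in the fit (adjusted p = 0.0669), the 2 groups alone (0.0981) and with irradiated library 4 and non-irradiated library 2 both left out (0.0716). AI467606, a gene known here by its clone name, ranged from 84.7 to 127 CPM (median 99.8) in the non-irradiated libraries and from 57.8 to 76.4 CPM (median 61.3) in the irradiated ones, also with no overlap (log2 fold change -0.67, SE 0.09, adjusted p = 5.74e-06), and was called in every fit that left out 1 library. Gm15987 is a barely detected transcript, with 16 reads over 6 of 7 non-irradiated libraries and 1 read in 1 of 8 irradiated ones. At this depth its adjusted p of 0.0364 rests on few reads, and it kept its call in 3 of 15 fits that left out 1 library, those without irradiated library 5 or non-irradiated library 1 or 6, and lost it with voom weights (adjusted p = 0.303) and with irradiated library 4 and non-irradiated library 2 both left out (0.226).

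Lists tied to dmPGE2 and to DNA repair held no called gene. Of all genes tested 0.384% rose and 0.0284% fell, so lists of this size can hold no call at that share alone. Of 33 cAMP and CREB targets none was called (median 0.0727), and of 21 genes of PGE2 receptors and prostanoid metabolism none was called (median 0.0238). Ptger4, which encodes the cAMP-raising EP4 receptor, was at 64.5 ± 10.9 CPM without and 81.2 ± 8.82 CPM with radiation (log2 difference 0.33, adjusted p = 0.999). In the cAMP and CREB list the largest values were those of Rasd1, a Ras-like GTPase gene, at 30.9 ± 13.98 CPM without and 87.6 ± 17.8 CPM with radiation (log2 difference 1.5, adjusted p = 0.532), and of Dusp1, given above. Every irradiated library was above every non-irradiated one in Rasd1, and the largest negative value was that of Rgs1, a regulator of G protein signalling, at 222 ± 69.5 CPM without and 137 ± 34.2 CPM with radiation (log2 difference -0.69, adjusted p = 0.799). Of 40 genes of double-strand break repair and checkpoint none was called (median 0.00682), and neither was any of 36 G1/S or 35 G2/M genes. Of 26 genes of the integrated stress and unfolded protein responses 1 rose (Sesn2, also a p53 target). No gene was called among 15 Krueppel-like factors, 23 NRF2 genes and 16 heat shock chaperones. A missed threshold does not show that these genes were unchanged. Unadjusted p was below 0.05 in 621 of 14061 genes tested, no more than that threshold gives where no gene changes.

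**Figure D5:**
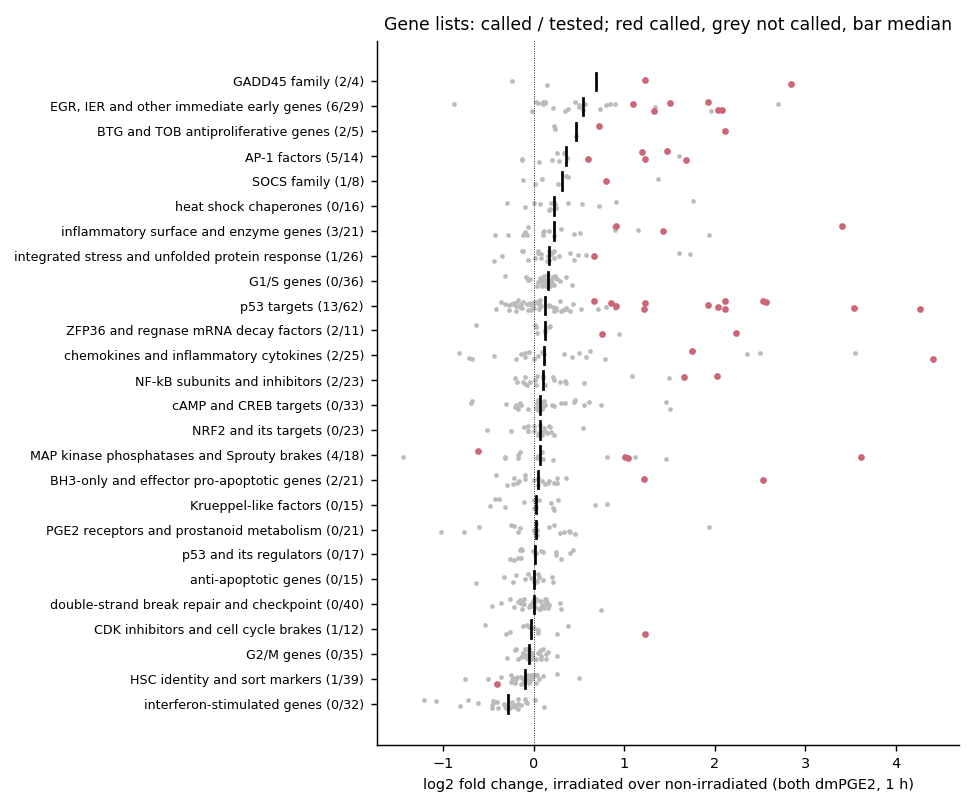
Log2 fold change of each gene tested (points, red where called) in 26 lists, with the list's median (bar) and, in brackets, called over tested genes. The 13 called p53 targets reach up to the 4.27 of Gdf15 while the list's median is 0.127, and 2 of 32 interferon-stimulated genes lie above 0.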

How the data were processed

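RNA of sorted mouse HSC was extracted with RNeasy Plus Micro, and libraries were made with SMART-Seq v4 and Nextera XT, as the labels' protocols state. These kits mark no strand and add no molecular tags, so a count is of reads, and reads of overlapping genes on opposite strands cannot be told apart. The submitters' processing notes name STAR 2.5.2b, the mm10 build and featureCounts of Subread 1.5.1. The deposited values are unscaled integer counts of reads per gene, per the file headers. Annotation and strand setting: not given in the sources used here. Of 54 library columns, 15 were not used, because their names (non-irradiated, vehicle) fit either time. Libraries are numbered within a group in table order. In 27 gene symbols a spreadsheet had put a date, and these were left as they stand.

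Counts were tested with edgeR 4.0.16 (R 4.3.3). Its filterByExpr, at a count minimum of 10, kept 14061 of 24421 genes, TMM set the scale, and the robust quasi-likelihood fit took 39 libraries in 5 groups, each with its own mean (34 residual degrees of freedom, common dispersion 0.128). Adjusted p are two-sided Benjamini-Hochberg values over all genes tested. The SE of a log2 fold change is its size over the root of the F statistic. CPM use TMM factors (marker sums use total counts), and log2 CPM a prior count of 3. Values with ± are mean and SD of 7 non-irradiated and 8 irradiated libraries. DESeq2 1.42.0 and limma 3.58.1 served as alternatives, beside other scalings, filters, sets of libraries and a block by the tag in the column names. The fit was tested on simulated data. The labels give 7 to 8 mice a group but do not say which library is which mouse, so p values measure the spread between libraries. All called genes are named. The uncalled genes named are mainly, for each list, among the 5 of largest change with log2 CPM averaging at least 2, and the others (defining HSC genes, Trp53, Nr4a1) were chosen after their values were seen. The genes, lists and tests were chosen with earlier results of these data known, the roles that order the panels after the calls, and lists are described without a test of the list.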

Additional observations from a re-analysis of the deposited data

Results flagged for a closer look

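Each of the 58 called genes was searched in each dmPGE2 group for a library whose gap to its nearest neighbour took up most of the group's range of log2(CPM + 1), and 15 of 116 gene and group pairs had one by Dixon's 95% criterion. Chance alone gives about 1 in 20 groups, and genes of 1 library are not independent. Irradiated library 4 was the high library for Gdf15 (98.6 CPM, next 33.8), Pmaip1 (38.2 CPM, next 9.64) and Slc19a2 (98.02 CPM, next 37.6), all p53 targets. Irradiated library 6 was the low one for Rhob (27.1 CPM, next 51.4), Dusp2 (764 CPM, next 1146) and Maff (39.2 CPM, next 58.3). Among other irradiated libraries, library 3 was high for Ier3 (229.8 CPM, next 169.7), library 5 low for Marcksl1 (153 CPM, next 204) and the 1 library with a read of Gm15987 (0.0437 CPM, next 0), and library 1 low for Sdccag3 (57.9 CPM, next 70.4). Non-irradiated library 2 was high for Zfp36 (509 CPM, next 132), Ier2 (707 CPM, next 424) and Ddit4l (1.67 CPM, next 0.812). Non-irradiated library 4 was high for Nfkbia (199.6 CPM, next 157), and library 5 low for Trex1 (39.6 CPM, next 48.9).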

How the results depend on the processing

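The count of 58 called genes became 125 with limma voom and sample weights (80.8% of them higher against 93.1%, 51 among the 58), and 21 when a fold change over 1.5 was tested. With the other planned settings it ran from 40 (adjusted p below 0.01) to 78 (DESeq2, all 58 among them), and leaving out 1 library gave 49 (without non-irradiated library 3) to 61. Leaving out irradiated library 4 and non-irradiated library 2 together, chosen after seeing the data, gave 44, 42 of them among the 58 (16 lost, adjusted p 0.0521 to 0.302, among them Rnd1, Gpr84, Vegfa, Fosl1, Dusp8, Rrad, Sdccag3, Tnfrsf12a and Trex1). No called gene reversed its direction, and 34 were called in every alternative fit, the test against a fold change of 1.5 and the stricter threshold aside. The 1 h libraries alone gave 64 genes, 47 of them shared. The count of dmPGE2 against vehicle in irradiated HSC, 1929, ran from 1775 (no filter) to 2827 (voom). With the 2 groups alone 67 genes were called and 12 of the 58 lost their call (adjusted p 0.0516 to 0.4), while Gm15987 was filtered out. Column tags are shared by 7 pairs of the compared groups, and no source says what a tag marks. Deviations of same-tag libraries correlated at 0.0828 to 0.277 (median of other tags -0.0354), over 0.1 in 6 of 7 pairs. In 5 of 7 pairs the 2 libraries were each other's best match across the groups, a hint of shared variation. Pairing was to be taken only if all 7 were over 0.1, so the reported fit has no block. With a replicate block by tag 60 genes were called, 53 of them shared, and Dusp6 (adjusted p = 0.0936), Socs1 (0.07), Gadd45g (0.091), Maff (0.0629) and Gm15987 (0.0923) lost their call. Depth limits genes near 0, such as Gm15987 and Dusp8.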

Other observations

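Genes outside the called set leaned to one side in some lists. Of 32 interferon-stimulated genes tested, 2 had a positive log2 fold change and none was called (median -0.283). Ifit3, an interferon-induced antiviral gene, was at 13.4 ± 10.5 CPM without and 5.8 ± 3.63 CPM with radiation (log2 difference -1.21, adjusted p = 0.321), and Ifit1 at 44.4 ± 28.3 CPM without and 25.4 ± 11.01 CPM with radiation (log2 difference -0.81, adjusted p = 0.746). The list's mean log2 CPM ran from 5.138 to 6.307 without and from 4.895 to 5.752 with radiation, so the groups overlapped. Of 36 G1/S genes 32 had a positive value (median 0.164), and of 39 HSC identity genes 8 did (median -0.0892). The G1/S mean log2 CPM ran from 6.349 to 6.835 (median 6.69) without radiation. With radiation it ran from 6.559 to 7.31 (library 6), with a median of 6.64. The HSC identity mean ran from 6.669 to 6.906 (median 6.785) without radiation. With radiation it ran from 6.35 (library 4) to 6.828 (median 6.7615), so both lists overlapped between the groups. Gfi1b, a repressor of stem cell and erythroid programmes, was at 80.4 ± 21.9 CPM without and 47.7 ± 16.4 CPM with radiation (log2 difference -0.75, adjusted p = 0.363), and Cxcr4, the homing receptor for CXCL12, at 18.6 ± 5.24 CPM without and 13.1 ± 4.57 CPM with radiation (log2 difference -0.51, adjusted p = 0.999). Genes of a list share libraries and regulation, so these shares carry no test.

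In the first principal component of the 23 libraries of the 3 groups (18.2% of the variance), irradiated vehicle libraries scored 29.9 to 48.2 and dmPGE2 libraries -29.6 to -8.28, with irradiated library 4 at the upper end of the latter.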
